A study of Mus musculus with 16 samples.

Results

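The genes described here are 7 members of the ETS family of transcription factors, Ets1, Ets2, Fli1, Elf1, Elk3, Etv6 and Gabpa, out of 26089 genes with a curated RefSeq transcript on the chromosomes of the peak lists. They were taken by name. Every chromatin immunoprecipitation sequencing (ChIP-seq) peak that touched one of their gene bodies, or the 30 kb on either side of it, was collected from 12 peak lists, which gave 305 of the 214352 peaks. The 7 genes have 9 curated transcription start sites (TSSs) of 31554 in all, 2 each for Ets1 and Elf1 and 1 for each of the others. The cells were CD8+ T cells from spleens of OT1 mice, a strain with a transgenic T-cell receptor that recognizes an ovalbumin peptide. Activation lasted 48 h, with plate-bound anti-CD3, soluble anti-CD28 and IL-2, and 3 days of expansion with IL-2 followed. Throughout, cells received either 0.5 μM GSK2879552 (GSK), which blocks the histone demethylase LSD1 irreversibly, or vehicle (Veh). Antibodies to LSD1, to RNA polymerase II (Pol II) and to the histone marks H3K4me1, H3K4me2, H3K4me3 and H3K27ac gave 1 library each per treatment, so there are no replicates, no spread between replicates and no test for any difference below. The 4 input samples were not analysed here.

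ETS factors share a DNA-binding domain, the ETS domain, that recognizes a GGAA core. LSD1 removes methyl groups from mono- and dimethylated H3K4. H3K4me3 marks promoters that are active or poised, H3K4me1 and H3K4me2 also mark enhancers, and H3K27ac marks promoters and enhancers in use. In T cells Ets1 and Fli1 are abundant activators of lineage genes. Ets2 is a close relative of Ets1. Elf1 is a lymphoid activator. Elk3 and Etv6 act mainly as repressors. Gabpa is the DNA-binding subunit of GA-binding protein, which drives housekeeping and mitochondrial genes.

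All coordinates are mm10, counted from 1. Ets1 lies on the plus strand of chromosome 9 with TSSs at 32636241 and 32696037, and Fli1 on the minus strand beside it with its TSS at 32541452, the gene bodies lying 94.8 kb apart. Ets2 starts at 95702407 and Gabpa at 84835124, both on chromosome 16. Elf1 starts at 79481194 and 79515674 on chromosome 14. Elk3 starts at 93311159 on the minus strand of chromosome 10, and Etv6 at 134035700 on chromosome 6. Elf1 and Gabpa each start head to head with a neighbour, Wbp4 and Atp5j, and a peak there cannot be given to one gene of the pair. The 7 windows covered 1108 kb, from 78.6 kb at Ets2 to 294 kb at Etv6, and also took in the promoters of neighbours such as Kbtbd6, Sugt1 and Gm17745.

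RefSeq promoter entries were at hand for Ets2, Elf1, Elk3, Etv6 and Gabpa. For Ets1 and Fli1 none was. Printed first are the 250 bases before the TSS of Ets2, Elk3 and Etv6, the 3 genes with the highest LSD1 fold values at their promoters in the GSK list. They are written in the direction of transcription, and capitals mark GGGCGG, the GC box, the only one of 6 searched motifs found in them.

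Ets2 promoter, chr16:95702157-95702406, plus strand: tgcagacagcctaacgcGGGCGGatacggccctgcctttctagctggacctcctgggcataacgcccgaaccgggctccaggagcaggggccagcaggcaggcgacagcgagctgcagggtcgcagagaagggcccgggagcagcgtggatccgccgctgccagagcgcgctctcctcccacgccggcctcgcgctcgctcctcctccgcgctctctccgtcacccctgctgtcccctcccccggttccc

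Elk3 promoter, chr10:93311160-93311409, minus strand: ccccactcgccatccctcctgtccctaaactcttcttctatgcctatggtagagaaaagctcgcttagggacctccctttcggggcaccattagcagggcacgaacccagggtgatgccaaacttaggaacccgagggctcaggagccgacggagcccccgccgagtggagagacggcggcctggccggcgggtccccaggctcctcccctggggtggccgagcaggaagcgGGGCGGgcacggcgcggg

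Etv6 promoter, chr6:134035450-134035699, plus strand: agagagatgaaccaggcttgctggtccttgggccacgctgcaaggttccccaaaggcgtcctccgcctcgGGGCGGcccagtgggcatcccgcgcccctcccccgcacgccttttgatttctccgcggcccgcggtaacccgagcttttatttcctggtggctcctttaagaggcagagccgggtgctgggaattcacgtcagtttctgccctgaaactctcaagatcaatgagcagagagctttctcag

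The motifs searched on both strands were the ETS letters CCGGAAGT and the shorter CGGAAG and GGAAGT contained in it, TGTGGT for RUNX factors, GGGCGG, and TGACTCA for AP-1. GGGCGG was in the 250 bases before 4 of the 6 TSSs with an entry, at Ets2, Elk3, Etv6 and the first Elf1 TSS, and in 32.7% of 32817 RefSeq promoters of the same length. The Gabpa promoter was the only one of the 6 with ETS letters, GGAAGT and, on the other strand, CGGAAG. Of all promoters, 19.7% held GGAAGT and 13.6% CGGAAG. The Gabpa stretch with both, 114 to 85 bases before the TSS, is shown with these letters in capitals.

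Gabpa site, chr16:84835010-84835039, plus strand: ggaGGAAGTggagggtaagtgCTTCCGggt

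Outside promoters, LSD1 peaks that had a counterpart in the other treatment and peaks that had none are shown by the strongest 2 of each kind, as the sequence around the Veh summit on the plus strand. Capitals mark TGTGGT and TGACTCA on either strand. The first sites were called in both treatments, 5.0 kb before Elf1 (inside intron 4 of Wbp4) and 64.2 kb after the Elk3 TSS, just beyond the end of the gene, where the print is kept to 109 bases free of annotated exons.

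Elf1 −5.0 kb, Veh and GSK, chr14:79476058-79476258: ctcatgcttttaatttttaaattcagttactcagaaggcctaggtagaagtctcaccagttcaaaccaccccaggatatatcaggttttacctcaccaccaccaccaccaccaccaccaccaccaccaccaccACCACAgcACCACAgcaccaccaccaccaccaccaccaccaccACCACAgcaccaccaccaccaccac

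Elk3 +64.2 kb, Veh and GSK, chr10:93246925-93247033: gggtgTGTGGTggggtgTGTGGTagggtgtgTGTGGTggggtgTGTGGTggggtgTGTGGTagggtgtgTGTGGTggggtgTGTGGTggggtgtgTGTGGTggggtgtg

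The other pair was called in the Veh list only, 12.5 kb into intron 1 of Etv6 and 11.4 kb before Elf1 (intron 7 of Wbp4).

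Etv6 +12.5 kb, Veh only, chr6:134048051-134048251: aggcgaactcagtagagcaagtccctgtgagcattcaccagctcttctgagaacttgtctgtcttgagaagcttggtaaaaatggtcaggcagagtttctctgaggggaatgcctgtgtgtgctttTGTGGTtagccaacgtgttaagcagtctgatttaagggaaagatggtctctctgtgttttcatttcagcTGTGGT

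Elf1 −11.4 kb, Veh only, chr14:79469729-79469929: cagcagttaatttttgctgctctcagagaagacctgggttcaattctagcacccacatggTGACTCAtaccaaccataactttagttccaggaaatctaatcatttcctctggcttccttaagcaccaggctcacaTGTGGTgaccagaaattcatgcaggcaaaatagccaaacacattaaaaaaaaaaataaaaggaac

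Both sites of the first pair run through a short tandem repeat, and the TGTGGT matches in them sit inside the repeat. The longest stretch within 100 bases of the summit that repeats itself exactly at a period of 1 to 12 bases was 45 bases at Elf1 −5.0 kb and 33 bases at Elk3 +64.2 kb, against 10 bases at Etv6 +12.5 kb and 11 bases at Elf1 −11.4 kb. Over all distal Veh LSD1 peaks at the 7 loci, 4 of the 6 with a GSK counterpart held a stretch of 30 bases or more, the other two being Elk3 +1.8 kb with 31 bases and Ets1 +16.2 kb with 36. None of the 11 Veh-only peaks did, their longest being 15 bases. The length of 30 was set after these values were seen. Across the genome the 2 kinds were close, with such a stretch in 5.11% of 4383 distal LSD1 peaks that had a GSK counterpart and in 4.18% of 8180 that had none.

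At their promoters the 7 genes carried LSD1 and H3K4me3 in both treatments. H3K4me3 lay within 1 kb of 8 of the 9 TSSs in both lists, where 49.3% of all TSSs had it in both. The exception was the upstream Ets1 TSS, which had no peak in 11 of the 12 lists and a GSK H3K4me1 peak alone (fold enrichment over background 4.01, −log10 p 5.23). LSD1 was present in both treatments at 7 of the 8 TSSs with H3K4me3, and at the second Elf1 TSS in neither. Among all TSSs with H3K4me3 in both treatments, 60.6% had LSD1 in both and 17.2% in GSK only. With 8 TSSs no excess over the genome is read from this count.

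**Figure D1:**
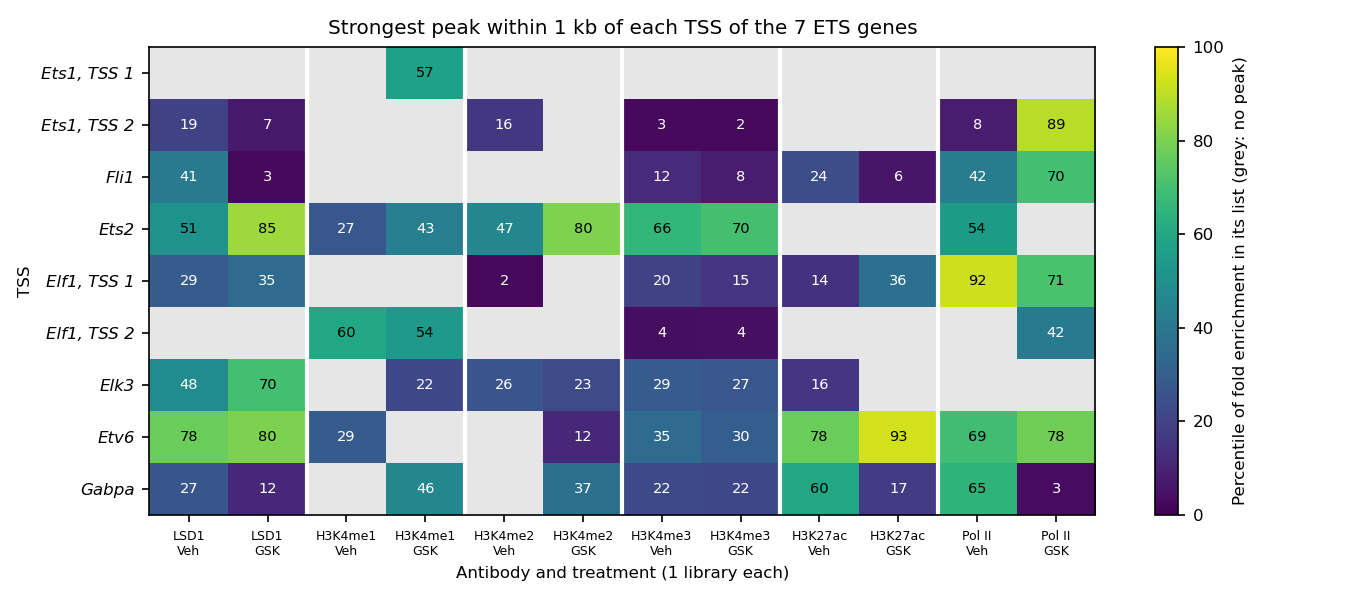
Each cell gives the percentile of fold enrichment, within its own list, of the strongest peak within 1 kb of a TSS (rows) for each antibody and treatment (columns, 1 library each). Grey cells have no peak. H3K4me3 is present in both columns at 8 of the 9 rows and LSD1 at 7, while H3K4me1 and H3K4me2 differ from row to row.

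LSD1 peak height differed between the lists in opposite directions at different promoters. Because folds depend on the library, each is given with its percentile, the share of peaks in the same list with a fold no higher. At Ets2 the LSD1 fold was 4.24 in Veh (percentile 51.4) and 6.23 in GSK (percentile 85.3), and at Elk3 it was 4.15 (48.2) and 5.27 (70.3). Etv6 had the highest of the 7 in Veh, 5.33 (77.7), and 5.83 (80.1) in GSK. At Fli1 the LSD1 fold was 3.98 (41.3) in Veh and 2.98 (2.67) in GSK, and at Ets1 3.46 (19.4) and 3.21 (6.80). The first Elf1 TSS stood at 3.65 (29.1) and 4.02 (35.0), and Gabpa at 3.59 (26.8) and 3.36 (11.7). Thus Ets1, Fli1 and Gabpa were lower in the GSK list and Ets2, Elf1, Elk3 and Etv6 higher, by 1 library on each side. The Gabpa peaks lay 0.76 and 0.61 kb after the TSS, and a further Veh peak 0.46 kb before it (fold 3.23) had no GSK counterpart. It was the only one of 9 Veh LSD1 peaks in promoters at the 7 loci without one, so 8 of 9 were shared, 88.9% with a Wilson 95% interval of 56.5% to 98.0%, beside 83.0% of all promoter LSD1 peaks in the Veh list. One of these 9 belongs to Kbtbd6 and not to an ETS gene. All intervals here cover counting error only.

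H3K4me3 was wide and low in fold at Ets1, Fli1 and the second Elf1 TSS. The H3K4me3 peak over the downstream Ets1 TSS was 2478 bp wide in Veh (width percentile 97.1) and 2452 bp in GSK (97.1), with folds of 3.00 and 2.86, at the fold percentiles 2.63 and 2.31. At Fli1 it was 2651 bp (97.9) in Veh and 2752 bp (98.3) in GSK, with folds of 3.94 and 3.70 at the percentiles 11.9 and 7.80. At the second Elf1 TSS it was 1959 bp (91.0) and 1957 bp (92.0), with folds of 3.27 and 3.25 at the percentiles 3.87 and 4.04. A low fold was not a low rank by −log10 p. The Fli1 peak, at −log10 p 126 and 104, ranked 1756 of 15779 in Veh and 2911 of 16887 in GSK. The downstream Ets1 peak ranked 7644 and 8335, and the second Elf1 peak 8479 and 8989. How far width sets the fold of a broad region was not tested. Ets2 was the narrowest of the 7, 1266 bp in Veh and 1255 bp in GSK, with the highest folds, 6.55 and 6.87. For the other TSSs with the mark the widths ran from 1778 to 2109 bp in Veh and from 1762 to 2120 bp in GSK. Gabpa (2109 bp, width percentile 93.4) and the first Elf1 TSS (2003 bp, 91.7) were wider in Veh than the second Elf1 TSS. Their Veh fold percentiles were 22.3 and 19.7. The largest difference in promoter H3K4me3 fold between the lists at any member was that at Ets2.

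H3K4me1 and H3K4me2, the marks LSD1 acts on, were called patchily at these promoters. Of the 8 TSSs with H3K4me3, H3K4me1 was called in both treatments at 2, in Veh only at 1 and in GSK only at 2, where 40.9% of all such TSSs had it in both, 6.07% in Veh only and 16.0% in GSK only. H3K4me2 was called in both at 2, in Veh only at 2 and in GSK only at 2, beside 48.9% in both, 23.5% in Veh only and 3.11% in GSK only for all such TSSs. Ets1 and the first Elf1 TSS had H3K4me2 in Veh only (folds 3.84 and 3.09), Etv6 and Gabpa in GSK only (4.14 and 4.69). Ets2 had both, with folds of 4.56 in Veh and 5.85 in GSK, and so did Elk3, where the peak was 2576 bp wide in Veh and 314 bp in GSK. Fli1 had neither mark within 1 kb, but an H3K4me2 peak 1.69 kb before its TSS was in both lists, with folds of 3.66 in Veh and 5.17 in GSK. These counts depend on the window: within 1 kb 3 genes had an H3K4me1 peak in Veh and 5 in GSK, within 500 bp 0 and 3, and within 2.5 kb 7 and 6.

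H3K27ac and Pol II set the promoters apart from each other. Fli1, the first Elf1 TSS, Etv6 and Gabpa had H3K27ac in both treatments, Elk3 in Veh only, and neither Ets1 nor Ets2 in either list. That is 4 of 8 in both, where 16.6% of TSSs with H3K4me3 had it in both and 24.4% in Veh only. Etv6 had the highest H3K27ac fold, 4.50 in Veh (percentile 77.6) and 6.50 in GSK (93.0). Fli1 had 3.48 (23.5) and 3.78 (5.96), Gabpa 4.07 (60) and 4.26 (17.4), and Elf1 3.28 (14.5) and 4.66 (36.5). The Elk3 peak, at fold 3.32 and −log10 p 7.36, ranked 6072 of 7410 in the Veh list. The GSK H3K27ac list has 2751 peaks, with a median fold of 4.91 against 3.90 in the longer Veh list. Fold percentiles of these lists therefore cannot be compared directly, and at Fli1 and Gabpa the percentile was lower in GSK though the fold was higher. The study's reporting summary gives far fewer reads for the GSK than for the Veh H3K27ac library. It gives unequal reads between the treatments for H3K4me1, H3K4me2 and Pol II too. It also describes random picking of reads to equal numbers for comparing signals, and it is not clear that the peaks were called on these. The part of depth in the missing Elk3 peak was not tested.

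Pol II was called in both treatments near 5 of the 8 TSSs with H3K4me3, in Veh only at Ets2, in GSK only at the second Elf1 TSS and in neither list at Elk3. The share in both was 43.0% over all such TSSs. At Ets1 the Pol II fold was 2.98 in Veh (percentile 7.74, −log10 p 4.84) and 5.38 in GSK (percentile 89.3, −log10 p 16.8), the largest difference in Pol II percentile at any member promoter. Fli1 went from 3.72 (42.2) to 4.01 (70.0). The first Elf1 TSS went the other way, with 7.39 (92.4) in Veh and, in GSK, a peak of 3.64 over the TSS and a second of 4.07 (71.3) 0.46 kb downstream. Etv6 had 4.78 (69.2) and 4.40 (78.3). Near Gabpa the Veh peak lay 0.32 kb before the TSS with a fold of 4.54 (65.0) and the GSK peak 0.33 kb after it with 2.72 (3.42), and they did not overlap. That GSK peak was near the calling limit, with −log10 p 3.80 and −log10 q 0.868, at rank 12950 of 15401. The Ets2 peak, Veh only, had a fold of 4.07. These peak heights come from 1 library each and say nothing of transcript levels.

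Away from promoters, fewer LSD1 peaks than not were called in both treatments. Of 17 distal LSD1 peaks in Veh (14 intronic, 3 intergenic), 6 overlapped a GSK peak, 35.3% (17.3% to 58.7%). Of 13 in GSK, 6 overlapped a Veh peak, 46.2% (23.2% to 70.9%). The whole lists gave 34.9% and 43.7%, so the 7 loci stood at the level of the genome. At the Fli1 locus none of the 5 Veh peaks outside the promoter overlapped a GSK peak by 1 base or more. The same held for both of the 2 at Etv6. With so few peaks, 0 of 5 allows a shared share of up to 43.4% by its Wilson 95% interval. Elf1 had 2 of 3 in both, Elk3 3 of 5 and Ets1 1 of 2. Ets2 and Gabpa had no distal Veh LSD1 peak.

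The Fli1 peaks were weak. They lay in intron 1 at 23.0, 31.6, 34.5 and 52.1 kb after the TSS and 29.5 kb before it, with folds of 3.28, 2.99, 2.43, 3.12 and 3.51 and −log10 p values between 3.89 and 5.91. In GSK 2 other peaks were called in the same intron, at 34.0 kb (fold 3.05) and 46.1 kb (fold 3.21), neither touching a Veh peak. The GSK peak at 34.0 kb lay within 1 kb of the Veh peak at 34.5 kb. That Veh peak was the one added when peaks within 1 kb counted as shared, which gave 7 of 17 over the 7 loci. Across the genome 13.7% of distal Veh LSD1 peaks with a −log10 p under 6 had a GSK counterpart, and 53.8% of those at 6 or more. At the 7 loci the counts were 3 of 11 and 3 of 6. The limit of 6 was set after the Fli1 values were seen.

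Among the stronger distal sites, 3 were in the Veh list only. Etv6 +12.5 kb stood at fold 6.11 and −log10 p 13.4, the highest −log10 p of the 11 Veh-only peaks, and ranked 2740 of 21252. Elf1 −11.4 kb had 6.24 and 10.5, and Elk3 +83.2 kb, inside Cdk17, had 4.21 and 7.30. An H3K4me1 peak lay over the Etv6 and the Elf1 site in both treatments, and none over the Elk3 site. In both lists stood Elf1 −5.0 kb, with folds of 6.74 in Veh and 6.24 in GSK, Elk3 +64.2 kb, with 6.09 and 4.91, and Elk3 +85.2 kb, inside Cdk17, with 5.13 and 4.03. Each of these 3 was lower in GSK. Elk3 +1.8 kb, in intron 1, had 3.12 in Veh and 4.20 in GSK, and Ets1 +16.2 kb, in intron 2, had 3.26 and 3.76.

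**Figure D2:**
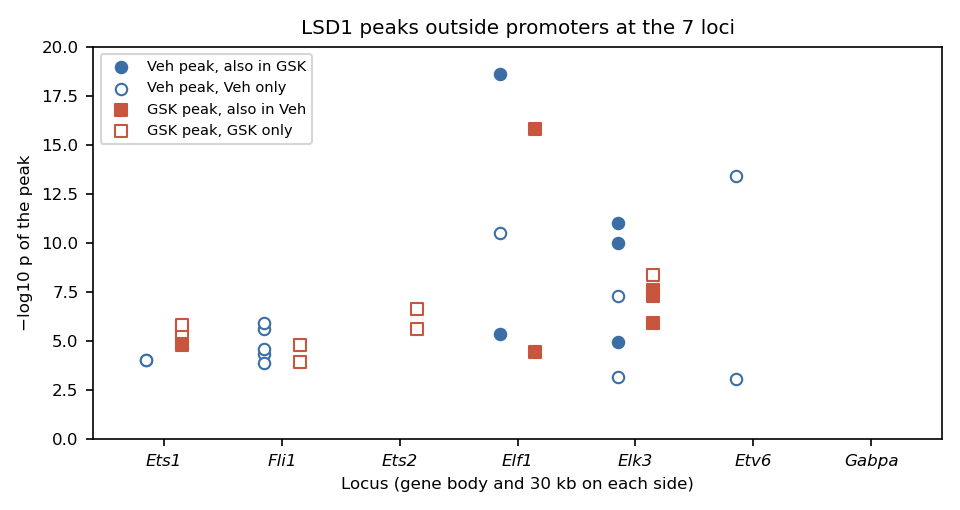
Each symbol is an LSD1 peak outside promoters, placed by locus (x axis) and by its −log10 p (y axis), circles for Veh and squares for GSK, filled where the other treatment had an overlapping peak. All 5 Veh peaks at Fli1 and both at Etv6 are open, and the filled symbols are at Ets1, Elf1 and Elk3.

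GSK-only distal LSD1 peaks numbered 7, of which 2 were at Ets1, 2 at Fli1, 2 at Ets2 and 1 at Elk3. The strongest was in intron 2 of Elk3, 36.0 kb after the TSS, at fold 4.97 and −log10 p 8.36. Of the 7, 4 lay on an H3K4me3 region called in both treatments, at Ets1 +36.6 and +109.9 kb, Fli1 +34.0 kb and Ets2 +47.9 kb. Of all 5625 GSK-only distal LSD1 peaks 9.76% did. The 4 regions at the members were distal, while the genome shares count H3K4me3 peaks of any class, promoter peaks included. Of the 11 Veh-only peaks none lay on such a region, and 7.63% of all 8180 did. The count is small, and the comparison was chosen with the peaks in view.

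Several distal regions carried more than one mark. In intron 1 of Fli1, about 33 kb after the TSS, H3K4me3 was called in both treatments (folds 3.89 and 3.98, −log10 p 18.3 and 21.3). H3K27ac was there in Veh only (fold 3.09, −log10 p 13.9), as was Pol II (fold 3.08). The LSD1 peak of the GSK list at 34.0 kb touched this region. At Ets2 +48 kb, H3K4me1, H3K4me2 and H3K4me3 were in both treatments, H3K27ac in Veh only with a fold of 4.01, and LSD1 in GSK only. At Ets1 +36 kb, in intron 3, H3K4me2 had folds of 5.45 and 5.90 and H3K4me3 folds of 4.97 and 4.79 in Veh and GSK. At Elk3 +36.7 kb H3K4me2 and H3K27ac were in Veh only, with folds of 4.14 and 3.26.

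**Figure D3:**
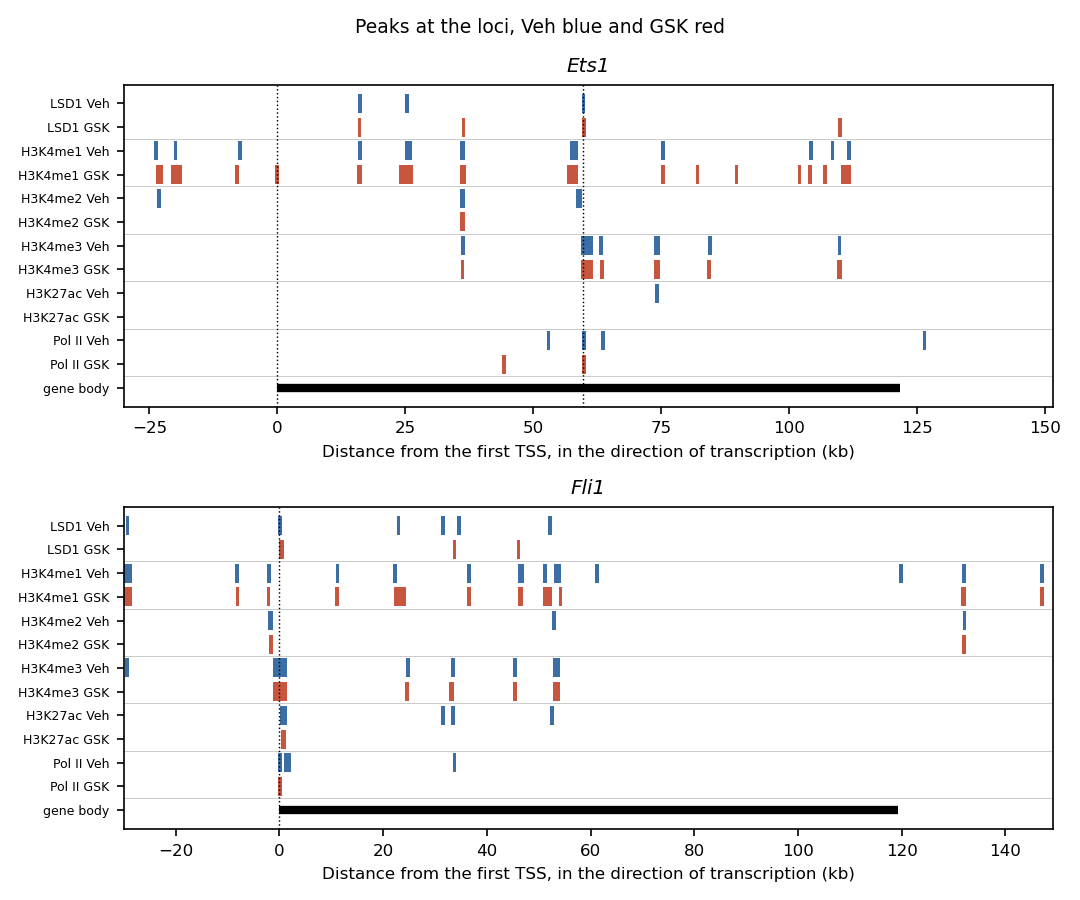
Peaks of the 12 lists at Ets1 (top) and Fli1 (bottom) by distance from the first TSS in kb, Veh in blue and GSK in red, with the gene body in black and TSSs as dotted lines. Very narrow peaks are drawn slightly wider than they are. The Ets1 promoter marks sit at the downstream TSS. The 4 intronic LSD1 peaks of Fli1 in Veh overlap no GSK LSD1 peak, though a GSK peak lies within 1 kb of the one at 34.5 kb.

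H3K4me1 was the most numerous mark at the loci, and with H3K4me3 it had the highest shared shares in the lists as deposited. The LSD1 and Pol II lists were cut at a looser limit than those of the histone marks, so their shares are not on the same footing. With lists of equal length the shares were 79.6% for H3K4me1, 71.4% for H3K4me2 (5 of 7) and 57.1% for H3K4me3. H3K4me1 had 60 peaks in Veh and 70 in GSK. Of the 54 distal Veh peaks 49 had a GSK counterpart, 90.7% (80.1% to 96.0%), beside 87.7% in the whole list. In the other direction 48 of 61 did, 78.7%, beside 75.9%. The 13 GSK-only distal peaks had −log10 p values from 5.09 to 11.3, the highest at Ets1 in intron 3, 22.3 kb after the downstream TSS, with a fold of 2.56. In the GSK list 6 of the 13 ranked beyond place 34387, the length of the Veh list. Ets1 and Etv6 held 4 each of these 13, Elf1 and Elk3 2 each, Ets2 1 and Fli1 and Gabpa none. The 5 Veh-only peaks were at Fli1 (2), Ets1, Ets2 and Etv6, and the strongest was 19.9 kb before Ets2 (fold 5.71, −log10 p 9.94). The Etv6 one, at +60.1 kb, lay beside a GSK-only peak at +59.7 kb without overlapping it. In peaks per 100 kb in Veh, Elf1 had 7.44, Elk3 7.27, Fli1 7.25 and Ets1 6.06, between the percentiles 81.5 and 88.9 of 20923 protein-coding loci of the same construction, whose median was 2.48. Etv6 had 2.72, at percentile 52.8.

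For distal H3K4me3, of 14 distal Veh peaks 13 were also in GSK, 92.9% (68.5% to 98.7%), beside 92.0% in the whole list, and all 13 GSK peaks were in Veh, beside 77.7%. Ets1 had 5 of the 14, all in introns, and Fli1 5, of which 4 were in intron 1. The one without a counterpart was 29.4 kb before Fli1 (fold 3.84, −log10 p 5.77), at the outer edge of the window. The widest distal one was in Elf1, 55 kb after the first TSS, 1861 bp in Veh and 2468 bp in GSK with folds of 3.47 and 3.43. It lay beside 3 RefSeq-predicted Elf1 start sites, the first at 79535536, that are not among the curated ones. Pol II was called there in both treatments with folds of 3.89 in Veh and 4.59 in GSK. With both lists at equal length, 8 of the 14 were shared.

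H3K4me2 outside promoters was shared for 5 of 10 Veh peaks, 50.0% (23.7% to 76.3%), beside 38.8%, and for 5 of 6 GSK peaks, 83.3%, beside 81.7%. Of the 5 shared, Fli1 had 2 (at +132.1 and −1.7 kb), Ets1, Ets2 and Elk3 1 each. The Elf1 window held 3 Veh H3K4me2 peaks and none in GSK. Of the 3, 1 was distal, 1 lay at the promoter shared with Wbp4 and 1 at that of Kbtbd6. The distal one ranked 13497 and the shared-promoter one 14725 in the Veh list, beyond place 9437, the length of the GSK list. So did 3 of the 5 distal Veh-only H3K4me2 peaks at the 7 loci.

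Distal H3K27ac was found in Veh at 9 places and in GSK at 1. That 1, in Elf1 intron 1, 3.8 kb after the second TSS, was shared, with folds of 2.84 and 3.69. So 11.1% of the Veh peaks (1.99% to 43.5%) had a GSK counterpart, beside 29.1% in the whole list, and the GSK peak had a Veh counterpart. The 8 Veh-only sites were 3 in Fli1 intron 1, 2 at Elk3 and 1 each at Ets1, Ets2 and Elf1. In the Veh list 7 of the 8 ranked below place 2751, the length of the GSK list. The exception was Fli1 +33.5 kb, at rank 1193. With both lists at 2751 peaks, the 7 loci held 5 H3K27ac peaks in Veh and 6 in GSK, against 16 and 6 with the lists as deposited. The part of list length in the 8 sites was not tested further.

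Distal Pol II peaks were mostly called in 1 list. Of 7 in Veh 1 was shared, 14.3%, as in the whole list with 14.3%, and of 3 in GSK 1, 33.3%, beside 12.9%. The shared one was that of Elf1 near +56 kb. Fli1 had 3 Veh-only peaks in intron 1 (folds 2.71 to 3.30), and Ets1 3 in Veh and 1 in GSK.

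**Figure D4:**
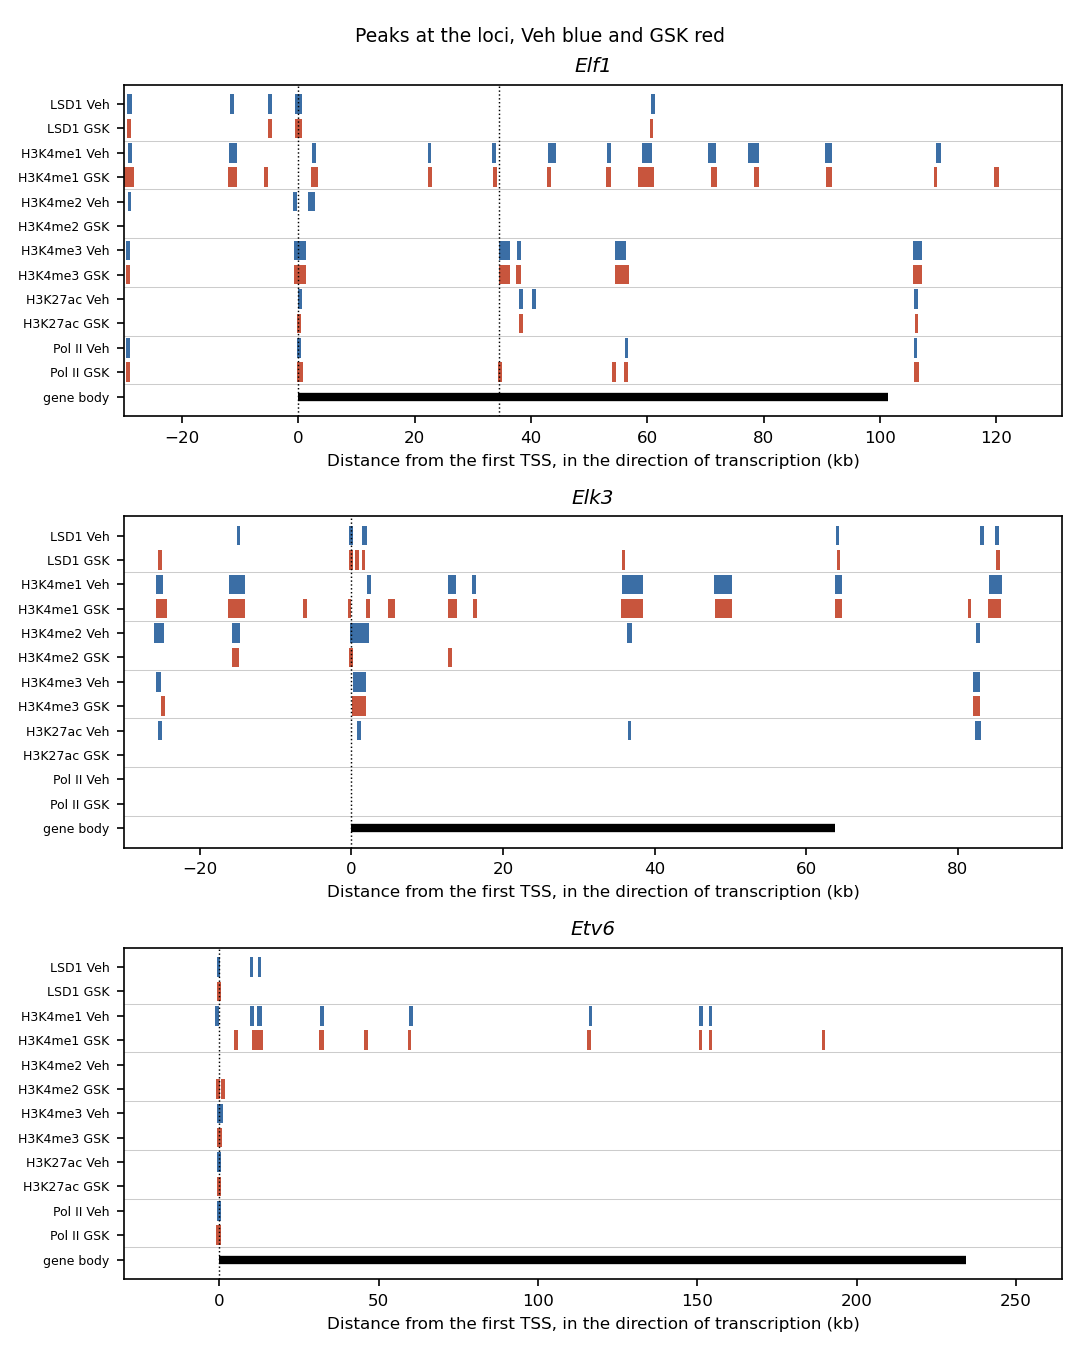
Peaks of the 12 lists at Elf1, Elk3 and Etv6 by distance from the first TSS in kb, Veh in blue and GSK in red, drawn as for Ets1 and Fli1. Elk3 has no Pol II peak in either list, and Etv6 has its marks other than H3K4me1 within a few kb of the TSS apart from the Veh-only LSD1 peaks.

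Over the 7 loci together the number of GSK peaks per Veh peak followed the whole lists. The ratio was 0.885 for LSD1 (23 to 26; whole lists 0.937), 1.17 for H3K4me1 (whole lists 1.17) and 0.688 for H3K4me2 (11 to 16; whole lists 0.620). For H3K4me3 it was 0.960 (24 to 25; whole lists 1.07), for H3K27ac 0.375 (whole lists 0.371) and for Pol II 0.867 (13 to 15; whole lists 0.985). For H3K27ac alone the 95% interval, 0.151 to 0.929, did not include 1, and the ratio turned to 1.20 with lists of equal length. At equal length the other ratios were 0.933 for H3K4me1, 1.00 for H3K4me2, 0.760 for H3K4me3, 0.958 for LSD1 and 0.867 for Pol II.

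**Figure D5:**
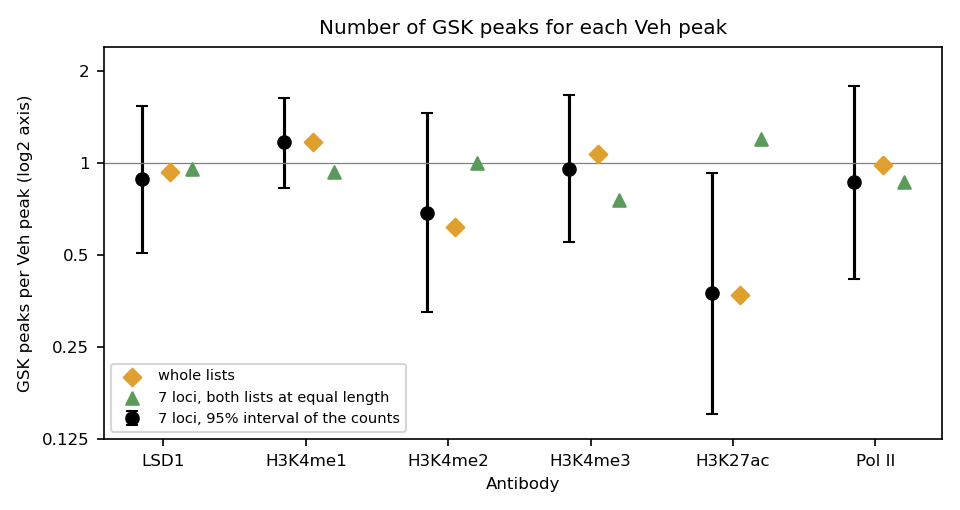
GSK peaks per Veh peak (log2 axis) for each antibody, over the 7 loci with the Wilson 95% interval of the counts (circles), over the whole lists (diamonds), and over the 7 loci with both lists shortened to equal length (triangles). The circles and diamonds lie close together, and the H3K27ac triangle is at 1.20 while its circle is at 0.375.

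Except for Pol II in GSK, the peaks named next had median folds in the lower part of their lists. The median fold percentile was 24.0 for LSD1 in Veh and 35.6 in GSK, 13.3 and 13.8 for H3K4me3, and 30.6 and 32.1 for H3K4me1. For Pol II it was 42.2 in Veh and 70.0 in GSK, where the median fold at the loci was 4.01 against 3.46 in the whole list. The highest LSD1 peak in the windows belonged to the Kbtbd6 promoter beside Elf1, with a fold of 9.23 in Veh and 10.00 in GSK, and the highest H3K27ac peak to Sugt1, on the other side of Elf1. Elk3 had the densest LSD1 peaks, 4.85 per 100 kb in Veh and 5.66 in GSK, at the percentiles 91.3 and 93.2 of protein-coding loci, and Etv6 the sparsest, 1.02 and 0.340.

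The other ETS genes of the mouse, 19 taken from the family by name, were looked up in the same way. H3K4me3 was at the promoter of 11 in Veh and 10 in GSK, where 50.2% and 51.3% of all genes had it. LSD1 was at 7 in Veh and 10 in GSK, beside 36.5% and 41.8% of all genes, with 6 in both, Erg, Etv3, Etv4, Etv5, Elf2 and Elk4. H3K27ac was in both lists at Elf2 and Elk4, and in Veh only at Spi1, which encodes PU.1. Pol II was in both at Etv3, Elf2 and Elk4. No peak of any antibody was at the promoters of 7 of the 19 in Veh. Of the GABP partners, Gabpb1 and Gabpb2, both had LSD1, H3K4me3, H3K27ac and Pol II in both treatments. So did Gabpa, though its GSK Pol II peak was weak (fold 2.72) and did not overlap the Veh one. Among lineage markers, all 6 T-cell genes (Cd3d, Cd3e, Cd3g, Cd8a, Cd8b1 and Lck) had promoter H3K4me3 in both lists and none of the 4 B-cell genes did. Of the 6 T-cell genes, 3 had H3K27ac in Veh and 1 in GSK, and 3 had Pol II in Veh and 5 in GSK. Cd8a had no H3K27ac or Pol II peak in either list. Of the 4 myeloid genes 1, Cd14, had it, with no H3K27ac or Pol II peak. Of the 2 CD4-lineage genes, Cd4 had no promoter peak of any antibody, and Zbtb7b had H3K4me3 and H3K4me1 in both lists and H3K4me2 in Veh, with no H3K27ac or Pol II peak.

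The genes whose promoters were most like a member were those with the smallest mean absolute difference in fold percentile over the 12 lists, a missing peak counting as 0, among 20923 protein-coding genes. For Fli1 these were Ccdc88c (mean difference 3.57 percentile points), Gimap5 (5.25) and Apbb1ip (5.67), where the median gene differed by 23.6. For Ets1 they were Asmt (4.64), Clic1 (6.10) and Gm11437 (6.19). Peaks at the downstream Ets1 TSS had low percentiles, such as 2.63 and 2.31 for H3K4me3, apart from Pol II in GSK (89.3). Because a missing peak counts as 0, a promoter without such low peaks can score as close. A small difference therefore does not show that the same antibodies had peaks at both promoters. Ets2 was nearest to Crebl2 (7.19), Elk3 to Chrm4 (5.75) and Etv6 to Rad21 (8.05). Elf1 and Gabpa had a difference of 0 from Wbp4 and Atp5j, which share their windows, and after these came Ubash3a (5.88) for Elf1 and Myo18a (10.9) for Gabpa.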

How the data were processed

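ChIP-seq was carried out on OT1 CD8+ T cells given GSK or Veh, with 1 library for each of 6 antibodies and 2 treatments. The authors mapped reads to mm10 with Bowtie2, removed duplicates and called peaks with MACS2 against input. The ChIP-seq is described as one of a pair of repeated experiments, and the other was not analysed here. For each peak the deposited lists give a fold enrichment (a ratio to local background), −log10 p, −log10 q and a score. They deposited narrow peaks with a summit for LSD1 and Pol II and broad regions for the histone marks. The study also describes random picking of reads, which gave libraries of equal size for comparing signals. It does not state clearly whether peaks were called on the picked reads. Read depth is not part of the lists, so list length may mix enrichment with depth. The lowest −log10 p was 3.01 in Veh LSD1 and 6.47 in GSK H3K27ac. The lowest −log10 q was between 3.01 and 3.03 in the histone lists. It was 0.787 (Veh) and 0.775 (GSK) for LSD1, and 0.595 and 0.523 for Pol II.

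Peaks were joined to GRCm38.p6 RefSeq genes with Python 3.11.15 and pandas 2.3.3. A peak within 1 kb of a curated TSS was a promoter peak. The rest were exonic, intronic or intergenic by summit or, for broad regions, midpoint, and are called distal. Peaks were shared where they overlapped by 1 base or more. Overlaps were tested on simulated intervals against bedtools 2.31.1. Intervals are Wilson 95% intervals (SciPy 1.17.1) and cover counting error only. Neighbouring peaks are not independent. All 7 genes are named, with single peaks taken by −log10 p, at most 3 per gene, antibody and kind, and 3 most alike genes. Other peaks were named after their values were seen. The members, lists and comparisons were chosen with earlier results of these data known. Alternatives were stricter −log10 q, other overlaps, windows and extensions, and lists of equal length.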

Additional observations from a re-analysis of the deposited data

How the results depend on the processing

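Of 113 alternatives to the counts and shares, 101 stayed within the interval of the main value or, for counts of genes, within 1.5 times it. The share of distal LSD1 peaks in Veh with a GSK counterpart stayed between 29.4% and 41.2% over 10 alternatives, 1 of which, the members' own gene bodies alone (30.0%), was added after the data were seen. LSD1 promoter peaks were all shared, 100%, when peaks within 1 kb counted as shared and when the 30 kb extensions were dropped. Without the extensions the 1 unshared peak, before the Gabpa TSS, fell outside the windows, so the 7 of 7 left follow from that setting. With −log10 q of at least 5, distal H3K4me1 peaks were shared for 76.5% and distal H3K27ac peaks for 0%. With both lists at equal length the distal shares were 79.6% for H3K4me1, 71.4% for H3K4me2, 57.1% for H3K4me3 and 0% for H3K27ac (1 Veh peak left), the H3K27ac ratio was 1.20 and 3 genes had promoter H3K27ac in Veh. Fewer peaks in the lists are the construction of these settings. H3K4me1 was within 500 bp of a TSS at 0 genes in Veh and 3 in GSK, and within 2.5 kb at 7 in Veh and 6 in GSK. Leaving out a replicate was not possible with 1 library per antibody and treatment. No paired analysis was possible because each antibody and treatment has 1 library. The lists hold no read numbers, and those the study states were not used to scale them, so a missing peak cannot be told apart from a peak below the calling limit.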

Other observations

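Around all distal Veh LSD1 summits, TGTGGT lay within 100 bases of 37.4% of the peaks with a GSK counterpart and of 29.2% of those without, GGGCGG of 14.2% and 6.17%, and GGAAGT of 23.7% and 20.0%. Of the 4 printed distal sites, all 4 held TGTGGT, 2 of them inside a tandem repeat, and none held GGAAGT or CGGAAG.

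Soft-masked repeat sequence made up 100% of the bases within 100 of the summit at Elf1 +61.1 kb, an LSD1 site called in both treatments, 71.6% at Elf1 −11.4 kb and 70.1% at Elf1 −5.0 kb, where the median over distal LSD1 peaks was 10.9% with a GSK counterpart and 16.4% without.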
